A study of Mus musculus with 4 samples.

Results

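Calmodulin and the enzymes it switches on were described across hearts of mice without miR-1 and control hearts. The 9 genes were taken by name from the 22552 rows of each deposited table: the calmodulin genes Calm2 and Calm3, the CaMKII genes Camk2d and Camk2g, the calcineurin catalytic subunits Ppp3ca and Ppp3cb, the calcineurin regulators Rcan1 and Rcan2, and Ppp2r5a, a regulatory subunit of protein phosphatase 2A. Poly-A RNA of whole hearts was sequenced in 4 libraries: dKO and dHET at postnatal day 2.5 (P2.5), and dKO and dHET at embryonic day 15.5 (E15.5). The dKO mice lack both genes for miR-1, miR-1-1 and miR-1-2, and the dHET mice are the controls, described as littermates in the design text; all 4 libraries are labelled as strain Sv129. The labels state neither whether a library pools animals nor which alleles the dHET mice carry. The control column of the E15.5 table is headed as wild type, whereas its sample is labelled dHET. Groups of 1 library give no replicate error, and each difference given here is one between 2 libraries.

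Calmodulin binds the calcium released at each heartbeat and then activates its partners. CaMKII is a kinase that phosphorylates calcium channels, the ryanodine receptor and the brake on the calcium pump, and calcineurin is a phosphatase that sends NFAT factors into the nucleus and drives growth of heart muscle cells. Rcan proteins bind calcineurin and restrain it, and Rcan1 is itself switched on by NFAT from a start site inside the gene. Ppp2r5a, also called B56 alpha, guides protein phosphatase 2A to substrates that CaMKII phosphorylates. Calm2 has been described as a target of miR-1 in rodent cardiomyocytes, and Ppp2r5a in those of the rat.

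Sequences that miR-1 could pair with were looked up first, since the deleted RNA acts through its seed (bases 2 to 8). The seed of miR-1 is shared with its relative miR-206, whose mature sequence (RefSeq, GRCm38.p6, chr1:20679055-20679076, plus strand) is shown 5′ to 3′ with the seed in capitals.
miR-206: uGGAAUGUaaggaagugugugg
A match to it in a 3′ UTR reads ACATTCC (bases 2 to 8), CATTCCA (bases 2 to 7 and an A) or ACATTCCA (both). On the transcript strand, 4 of the 9 genes held such a match in their longest annotated 3′ UTR, each of them 1 match of 7 bases, and the other 5 genes held none. The sites are shown because the changes given below can be read against them. They are written 5′ to 3′ on the transcript strand, with the match in capitals (GENCODE release M1 on NCBIM37, the assembly of mm9).
Calm2 (chr17:87832794-87832815, minus strand): ttgcctcaaatcCATTCCAagt
Camk2g (chr14:21554749-21554770, minus strand): ctcaaggaggtcCATTCCAgga
Rcan2 (chr17:44174557-44174578, plus strand): ctctgcatcccgACATTCCcag
Ppp2r5a (chr1:193175952-193175973, minus strand): tgttaccagtacCATTCCAgcc
Rcan2 alone had the match to bases 2 to 8. Over 8663 genes expressed in these hearts with an annotated 3′ UTR, 18.4% held at least 1 match of these kinds. Long 3′ UTRs hold more words, and those of the 9 genes ran from 615 bases (Calm2) to 2684 bases (Camk2d), against a median of 1186 bases over the expressed genes. A match of letters is not evidence of binding.

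All 9 genes were well expressed in all 4 libraries. The deposited values are FPKM (fragments in each 1000000, per kilobase of a transcript), which are per length and so can be compared between genes of a library. The lowest value was 13.6 FPKM (Ppp3cb, P2.5 dKO) and the highest was 104 FPKM (Calm3, P2.5 dKO). Among genes with at least 1 FPKM in the same library, the levels of the 9 lay between percentiles 65.2 and 97.7. The calmodulin genes led in every library. At P2.5 they were followed by Camk2d in both genotypes, but the next place was held by Rcan1 in the dKO library and by Rcan2 in the dHET library. In the E15.5 libraries of both genotypes Rcan1 came next after calmodulin and then Camk2d, at 61.7 and 47.0 FPKM in the dKO library, and at 52.1 and 51.9 FPKM in the dHET library. Ppp3cb was the lowest of the 9 in each library. With 1 library per group, the order of neighbours so close has no error to be judged by. The 2 stages were read and scaled separately, so levels are set side by side across stages without a comparison.

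**Figure D1:**
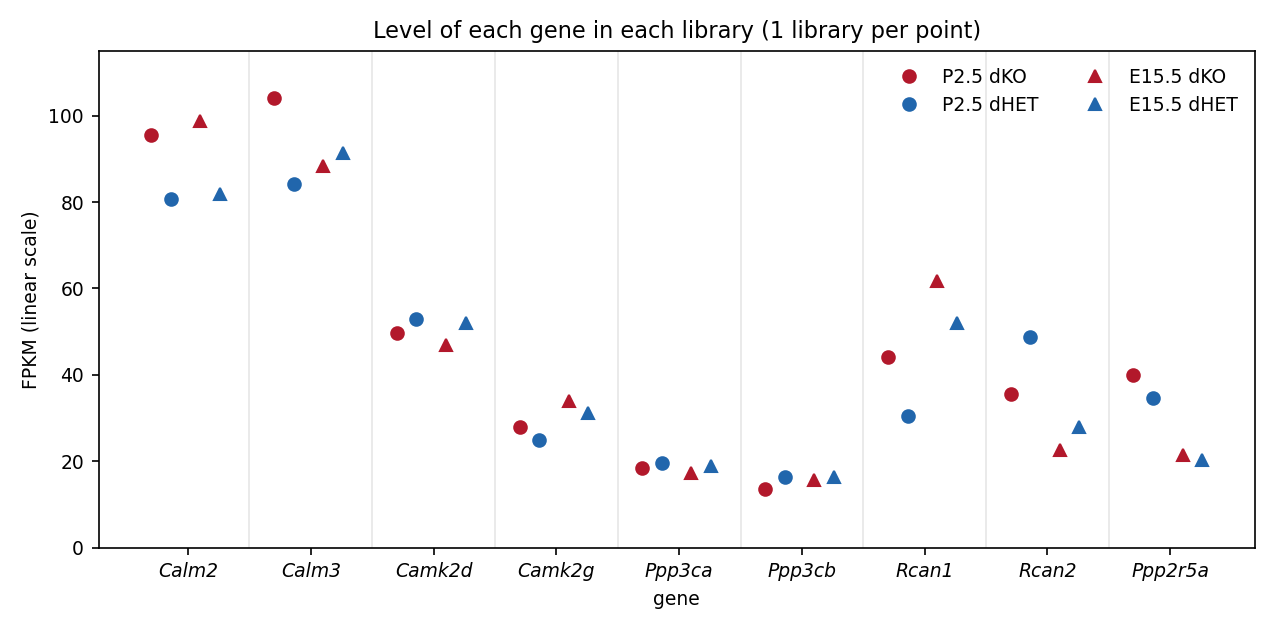
The plot shows FPKM on a linear axis for each of the 9 genes, with 1 point per library; circles are P2.5, triangles E15.5, red dKO and blue dHET. Rcan1 is higher and Rcan2 lower in the dKO library of each stage, while Ppp3ca and Ppp3cb stay between 13.6 and 19.6 FPKM throughout.

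The libraries themselves set limits on every value. Scaling totals recovered from the smallest FPKM values were 49900000 (dKO) and 44600000 (dHET) fragments at P2.5, and 104000000 (dKO) and 86500000 (dHET) at E15.5. Over the longest annotated transcripts they put about 2610 to 21500 fragments behind each value of the 9 genes, a counting error of 0.014 to 0.039 on the log2 change. The standard error implied by the fold change and test statistic in the authors' deposited table was wider, at 0.27 to 0.36 (P2.5) and 0.16 to 0.20 (E15.5); it is the value in brackets after each change below. At P2.5 the dKO library had the female marker Xist (50.7 FPKM, against 0.101 FPKM in dHET) and lacked the Y-linked Ddx3y (listed at 0, against 11.7 FPKM in dHET), so genotype and sex cannot be told apart there; at E15.5 Ddx3y was at 14.8 FPKM in dKO and 15.3 FPKM in dHET. Tnnt2, Actc1, Ryr2 and Nkx2-5, which mark heart muscle, were present in all 4 libraries, with Tnnt2 at 5545 FPKM in dKO and 3314 FPKM in dHET at P2.5. The other 2 markers of that list each had a value of 0 in 1 dKO library, where the authors marked the row HIDATA, and were not used there, Myh6 at P2.5 (2270 FPKM in dHET) and Myh7 at E15.5 (1335 FPKM in dHET). The markers fixed for atrial muscle (4 of 4 genes) summed to 1252 FPKM in dKO and 254 FPKM in dHET at P2.5, with all 4 genes at least 1.5-fold higher. At E15.5 they summed to 2335 FPKM in dKO and 1698 FPKM in dHET, with 2 of 4 higher. Those for smooth muscle (4 of 4) summed to 1768 FPKM in dKO and 696 FPKM in dHET at P2.5, with 2 of 4 higher. At E15.5 they summed to 1363 FPKM in dKO and 828 FPKM in dHET, with 1 gene higher and 1 lower. Some other cell types had medians below 0 in the P2.5 pair. These were fibroblast markers at -0.39 (2 of 4 at least 1.5-fold lower) and epicardial markers at -0.35 (2 counted). Macrophage markers were at -0.22 (all 4 counted below 0). The fibroblast sum was not lower, at 469 FPKM in dKO against 465 FPKM in dHET. Among the fibroblast markers Col1a1 alone was higher in dKO, at 309 FPKM against 221 FPKM. Endothelial markers were at 0.19 (all 4 above 0), and the 1 erythroid marker counted was at 0.54. The part of cell makeup in the changes below was not tested, and in RNA of whole hearts fewer cells of a type and less RNA per cell cannot be told apart.

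For each gene the change was computed within a stage as log2((FPKM dKO + 1)/(FPKM dHET + 1)), and a gene was counted if it reached 5 FPKM in either library. None of the 9 genes was 1.5-fold higher or lower in dKO at either stage. Over all counted genes, 3.59% were at least 1.5-fold higher and 1.15% lower at P2.5, and 0.494% were higher and 0.566% lower at E15.5, so a count of 0 among 9 is near this background. At a fold of 1.2, Rcan1 and Calm3 were higher and Rcan2 was lower at P2.5, where 24.1% of all counted genes were higher and 9.22% lower. At E15.5 Calm2 was higher and Rcan2 lower by that measure, against 4.75% higher and 3.82% lower over all counted genes. The median change of the 9 genes was 0.15 in the P2.5 pair, where 5 were above 0 and 4 below (63.2% and 36.8% of all counted genes), against a median of 0.083 over all counted genes. In the E15.5 pair it was -0.048, with 4 above 0 and 5 below (46.3% and 53.7%), against -0.012 over all. Of the 9 genes, 8 had the same sign of change at both stages, in pairs of libraries that share none; over all 7650 genes counted at both stages the share was 63.0%. Calm2, Camk2g, Rcan1 and Ppp2r5a were above 0 at both stages (36.7% of all) and Camk2d, Ppp3ca, Ppp3cb and Rcan2 below 0 at both (26.2%). These counts rest partly on changes near 0. After adjustment for GC content and length, Camk2d (0.022) and Ppp3ca (0.036) were above 0 at P2.5. Their adjusted E15.5 values stayed below 0, at -0.11 and -0.092. With each P2.5 library rescaled to a sum of 1000000, Camk2g was at -0.0036. The share over all genes was not recomputed under these settings. In the authors' deposited table none of the 9 was called significant, against 0.406% of tested genes in the P2.5 pair and 0.936% in the E15.5 pair. Their q-values there were all 0.999987 (P2.5) and 0.999909 (E15.5). Of the 9 changes, 6 lay within 1 of the standard errors implied by that table at each stage.

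**Figure D2:**
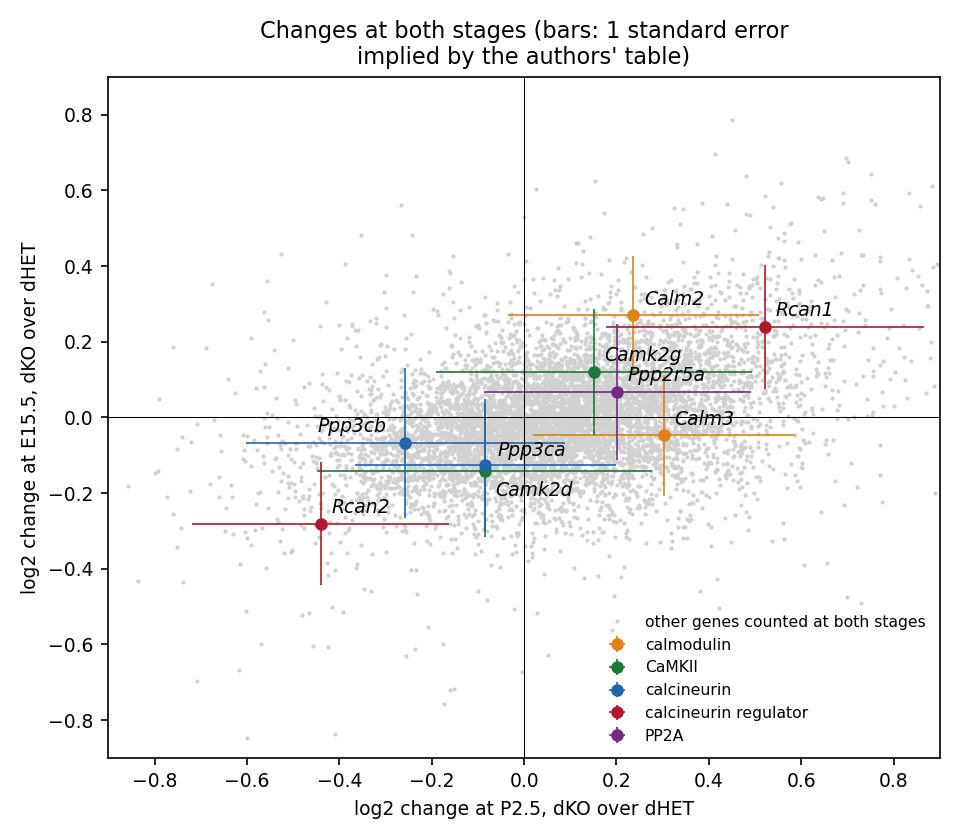
The plot sets the log2 change (dKO over dHET) at P2.5, on the horizontal axis, against that at E15.5, on the vertical axis, for the 9 genes in colour, with bars of 1 standard error as implied by the authors' table, over the other counted genes in grey (80 of 7650 lie beyond the axes at 0.9). Rcan1 sits at 0.52 and 0.24, Rcan2 at -0.44 and -0.28, and the bars of Camk2d, Camk2g, Ppp3ca, Ppp3cb and Ppp2r5a cross 0 on both axes.

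Calmodulin came first among the 9 in abundance and was slightly higher in most comparisons. Calm2 (chromosome 17, 87832752 to 87846275, GENCODE M1 on NCBIM37, as for the other genes) had 95.4 FPKM in dKO and 80.8 FPKM in dHET at P2.5, and 98.8 FPKM in dKO and 81.7 FPKM in dHET at E15.5. The dKO library was the higher of each pair, by 0.24 (0.27) and 0.27 (0.16) on the log2 scale. The changes of Calm2 stood at percentiles 72.8 (P2.5) and 95.5 (E15.5) of all counted genes. Rescaling each P2.5 library to a sum of 1000000 brought the first to 0.079. Calm3 (chromosome 7, 17500728 to 17509463), which encodes the same protein, had 104 FPKM in dKO and 84.2 FPKM in dHET at P2.5, a change of 0.30 (0.28). At E15.5 it had 88.4 FPKM in dKO and 91.4 FPKM in dHET, a change of -0.048 (0.16), so that it was the only one of the 9 whose sign differed between the stages. The changes of Calm3 stood at percentiles 80.3 (P2.5) and 39.6 (E15.5).

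The proteins of Calm2 and Calm3, translated from the annotated coding sequences, were identical over 149 residues, whereas the coding sequences were 82.7% identical. Their messages differ in the untranslated parts, and only Calm2 held a miR-1 match. Of 100-base windows along the transcripts, 17.8% in Calm2 and 5.68% in Calm3 also matched another place in the genome with at most 2 mismatches, so part of their reads could be shared with copies and the values are uncertain to that extent. Calm2 and Calm3 together summed to 199.5 FPKM in dKO and 165 FPKM in dHET at P2.5, and to 187 FPKM in dKO and 173 FPKM in dHET at E15.5. On the log2 scale these are differences of 0.27 and 0.11. Calm2 gave 47.8% of the sum in dKO and 49.0% in dHET at P2.5, and 52.8% in dKO and 47.2% in dHET at E15.5, so that the genes shared it almost evenly.

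The CaMKII genes were close to their control values and differed from each other in sign. Camk2d (chromosome 3, 126299220 to 126547972), the main CaMKII gene of heart muscle, had 49.8 FPKM in dKO and 52.9 FPKM in dHET at P2.5, and 47.0 FPKM in dKO and 51.9 FPKM in dHET at E15.5. The changes were -0.085 (0.36) and -0.14 (0.18), with the dKO value the lower of both pairs; after adjustment for GC content and length the P2.5 value was 0.022. Camk2g (chromosome 14, 21554097 to 21613310), which encodes the gamma subunit of the same kinase and held a miR-1 match, had 27.9 FPKM in dKO and 25.0 FPKM in dHET at P2.5. At E15.5 it had 33.9 FPKM in dKO and 31.2 FPKM in dHET. Its changes were 0.15 (0.34) and 0.12 (0.17), and rescaling each P2.5 library to a sum of 1000000 brought the first to -0.0036.

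A ratio of 2 genes in 1 library does not depend on how that library was scaled. The Camk2d to Camk2g ratio was 1.79 in dKO and 2.12 in dHET at P2.5, and 1.38 in dKO and 1.67 in dHET at E15.5. It was lower in dKO at both stages, with log2 differences of -0.24 and -0.27, against standard errors combined from the authors' values of 0.50 and 0.24. With the changes adjusted for GC content and length, the P2.5 difference was -0.13. The annotated proteins of these paralogs were 85.4% identical over 512 aligned residues. Camk2d and Camk2g together with Camk2a and Camk2b summed to 107 FPKM in dKO and 113 FPKM in dHET at P2.5, and to 116 FPKM in dKO and 121 FPKM in dHET at E15.5. Camk2d gave 46.5% of the sum in dKO and 46.7% in dHET at P2.5, and 40.4% in dKO and 42.9% in dHET at E15.5. Camk2a had 26.4 FPKM in dKO and 32.2 FPKM in dHET at P2.5, a change of -0.28 (0.28). At E15.5 it had 34.1 FPKM in dKO and 36.6 FPKM in dHET, a change of -0.099 (0.16).

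The calcineurin catalytic subunits were the least abundant of the 9 genes and slightly lower in dKO. Ppp3ca (chromosome 3, 136333088 to 136600691), which encodes the alpha form of the phosphatase, had 18.4 FPKM in dKO and 19.6 FPKM in dHET at P2.5, and 17.3 FPKM in dKO and 18.9 FPKM in dHET at E15.5. The changes were -0.084 (0.28) and -0.12 (0.17), and the first became 0.036 after adjustment for GC content and length. Ppp3cb (chromosome 14, 21318586 to 21365795), which encodes the beta form, had 13.6 FPKM in dKO and 16.5 FPKM in dHET at P2.5. At E15.5 it had 15.7 FPKM in dKO and 16.5 FPKM in dHET. Its changes were -0.26 (0.35) and -0.068 (0.20), and its transcript had the lowest GC content of the 9, 39.8%; adjusted for GC content and length they were -0.057 and -0.012. Neither gene held a miR-1 match. Across all counted genes, changes were related to the GC content of the transcript (Pearson's r was 0.36 in the P2.5 pair and 0.18 in the E15.5 pair, across genes, which are not independent replicates).

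The ratio of Ppp3ca to Ppp3cb was 1.35 in dKO and 1.19 in dHET at P2.5, and 1.10 in dKO and 1.15 in dHET at E15.5, with no common direction. Their annotated proteins were 84.1% identical. The regulatory subunit Ppp3r1, which the catalytic subunits need for activity, was lower in dKO in both pairs, with 24.1 FPKM in dKO and 28.7 FPKM in dHET at P2.5, and 27.5 FPKM in dKO and 30.3 FPKM in dHET at E15.5. The third catalytic gene, Ppp3cc, had 7.31 FPKM in dKO and 6.17 FPKM in dHET at P2.5, and 4.37 FPKM in dKO and 4.11 FPKM in dHET at E15.5.

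The calcineurin regulators had the largest changes of the 9 genes at P2.5, and in opposite directions; at E15.5 the change of Calm2 was larger than that of Rcan1. Rcan1 (chromosome 16, 92392198 to 92466391) had 44.1 FPKM in dKO and 30.5 FPKM in dHET at P2.5. At E15.5 it had 61.7 FPKM in dKO and 52.1 FPKM in dHET. It was higher in dKO in both pairs, by 0.52 (0.34) and 0.24 (0.16) on the log2 scale, at percentiles 94.6 and 93.9 of all counted genes. Rcan1 held no miR-1 match in its 3′ UTR. The annotation gives it 2 transcripts, and the deposited value covers the whole gene and does not tell them apart. Their start sites were not examined here.

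Rcan2 (chromosome 17, 43938800 to 44176465), its paralog, which also binds calcineurin, went the other way. It had 35.6 FPKM in dKO and 48.7 FPKM in dHET at P2.5, and 22.7 FPKM in dKO and 27.8 FPKM in dHET at E15.5. It was lower in dKO in both pairs, with changes of -0.44 (0.28) and -0.28 (0.16), at percentiles 2.80 and 3.12 of all counted genes. Rcan2 was the 1 gene of the 9 at least 1.2-fold lower at both stages, as were 0.967% of the genes counted at both. It was also the gene with the seed match to bases 2 to 8. When each P2.5 library was rescaled to a sum of 1000000, which moves the median of all counted genes by -0.15, its change became -0.61, past 1.5-fold.

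Set against each other within a library, the Rcan genes gave the largest shift among the 4 paralog pairs. The Rcan1 to Rcan2 ratio was 1.24 in dKO and 0.625 in dHET at P2.5, a 1.98-fold difference. At E15.5 it was 2.71 in dKO and 1.87 in dHET, a 1.45-fold difference. On the log2 scale these are 0.99 and 0.54, against combined standard errors of 0.44 and 0.23; the pair was singled out after its values were seen, and no test was made. The sum of both was nearly the same in each pair of libraries, 79.8 FPKM in dKO and 79.2 FPKM in dHET at P2.5, and 84.4 FPKM in dKO and 79.9 FPKM in dHET at E15.5. Rcan1 thus made up 55.3% of the sum in dKO and 38.5% in dHET at P2.5, and 73.1% in dKO and 65.2% in dHET at E15.5. The annotated proteins were 60.4% identical over 225 aligned residues, and no window of either transcript matched elsewhere in the genome. Rcan3, the smallest of the family in these hearts, had 5.41 FPKM in dKO and 3.07 FPKM in dHET at P2.5, a change of 0.65, and 4.89 FPKM in dKO and 3.93 FPKM in dHET at E15.5, a change of 0.26; it did not reach 5 FPKM at E15.5 and was not counted there.

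**Figure D3:**
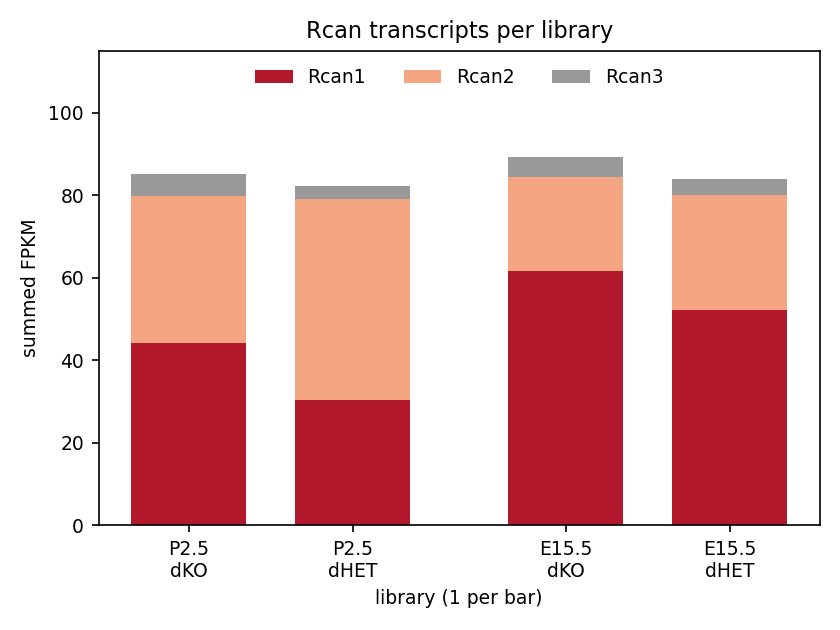
Stacked bars give the FPKM of Rcan1, Rcan2 and Rcan3 in each library, dKO beside dHET for each stage, with 1 library per bar. On the deposited scale the bar heights lie between 82.2 and 89.3 FPKM, while the Rcan1 part is larger in the dKO library of each stage. The heights depend on the scaling of each library.

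Of all genes counted at both stages, those with changes nearest to the pair of changes of Rcan1 were Ostm1 (0.52 and 0.24), Zdhhc12 (0.52 and 0.24) and Mgst1 (0.51 and 0.25), by distance over 2 within-stage changes among 7649 genes. Their distances were 0.0022, 0.0043 and 0.014 on the log2 scale.

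Ppp2r5a was slightly higher in dKO. It (chromosome 1, 193175860 to 193220920) had 40.1 FPKM in dKO and 34.7 FPKM in dHET at P2.5, and 21.4 FPKM in dKO and 20.4 FPKM in dHET at E15.5. The changes were 0.20 (0.29) and 0.068 (0.18), both smaller than the authors' standard error. Within the B56 family, Ppp2r5a to Ppp2r5e, it made up 32.6% of the summed FPKM in dKO and 29.5% in dHET at P2.5. At E15.5 its share was 20.6% in dKO and 18.7% in dHET. The largest share in every library was that of Ppp2r5c, another B56 subunit, with 32.8% in dKO and 35.1% in dHET at P2.5, and 38.4% in dKO and 40.3% in dHET at E15.5. Of the 100-base windows of Ppp2r5a, 16.7% also matched elsewhere in the genome, which leaves the level of Ppp2r5a uncertain to that extent.

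Read against the sites, 3 of the 4 genes with a miR-1 match (Calm2, Camk2g and Ppp2r5a) were above 0 at both stages and the other, Rcan2, was below 0 at both. Of the 5 genes without a match, Rcan1 was above 0 at both stages, Camk2d, Ppp3ca and Ppp3cb were below 0 at both, and Calm3 was on either side. The P2.5 signs of Camk2g, Camk2d and Ppp3ca depended on the processing. Over all counted genes with an annotated 3′ UTR, the median change of genes with a match was 0.063 (1430 genes) and of genes without one 0.086 (6605 genes) at P2.5. At E15.5 these medians were 0.0091 (1521 genes) and -0.017 (6626 genes). The share of genes above 0 was 60.2% with a match and 63.9% without one at P2.5. At E15.5 it was 52.2% with a match and 45.0% without one.

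The wider pathway was taken from lists of calcium signalling genes, which hold 108 genes besides the 9, of which 106 had rows in the tables. In the P2.5 pair 71 were counted, with 4 past 1.5-fold on the higher side and 2 on the lower (3.59% and 1.15% over all counted genes), and a median change of -0.026. At E15.5 67 were counted, 1 of them higher and 0 lower (0.494% and 0.566%), with a median of -0.052. Among the calmodulin-dependent kinases, 1 of 10 counted genes was higher at P2.5 and 0 of 8 at E15.5. That one was Pnck, a kinase of the CaMKI group, with 10.7 FPKM in dKO and 5.92 FPKM in dHET at P2.5, and 6.32 FPKM in dKO and 3.96 FPKM in dHET at E15.5; its changes were 0.76 (0.38) and 0.56 (0.29), and without the pseudocount its E15.5 ratio of 1.60 was past 1.5-fold too. Of the calcineurin regulators, 2 of 11 were higher at P2.5, Rcan3 and the calcium-binding Cib1, which had 23.0 FPKM in dKO and 14.0 FPKM in dHET, and 0 of 10 at E15.5. None of the counted NFAT factors (4 at P2.5 and 5 at E15.5) reached 1.5-fold; the largest change was that of Nfat5, -0.39 at P2.5.

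The lists of other enzymes that calmodulin regulates, and of calmodulin-binding and storage proteins, held no gene past 1.5-fold at either stage. The counts were 0 of 4 and 0 of 3 for enzymes and pumps, and 0 of 9 and 0 of 10 for binding proteins. Over all counted genes the P2.5 pair had 3.59% higher with 1.15% lower. The E15.5 pair had 0.494% higher with 0.566% lower, so counts of 0 in lists this short are near the background. The farthest from 0 among the enzymes were Pde1c, which breaks down cyclic nucleotides, with 13.5 FPKM in dKO and 18.2 FPKM in dHET at P2.5, and Atp2b4, a calcium pump of the cell membrane, with 23.4 FPKM in dKO and 18.3 FPKM in dHET at E15.5. Their changes were -0.40 (0.34) and 0.34 (0.17). Strn, a scaffold protein that binds calmodulin, had 19.8 FPKM in dKO and 15.7 FPKM in dHET at P2.5, a change of 0.31 (0.27).

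Of the phosphatase 2A genes, 0 of 16 reached 1.5-fold at either stage on the scale with a pseudocount of 1. The lowest at P2.5 was Ppp2r3a, a regulatory subunit, with 36.9 FPKM in dKO and 55.7 FPKM in dHET at P2.5, a change of -0.58 (0.39), and 50.3 FPKM in dKO and 59.0 FPKM in dHET at E15.5, a change of -0.23. Without the pseudocount its P2.5 ratio of dKO to dHET was 0.663, which is past 1.5-fold. Ppp2ca, the main catalytic subunit, had 85.9 FPKM in dKO and 102 FPKM in dHET at E15.5. The median change of the list was -0.030 in the P2.5 pair, 0.035 after adjustment for GC content and length, and -0.11 in the E15.5 pair. Among substrates of these enzymes in heart muscle, 2 of 13 were at least 1.5-fold lower in the P2.5 pair and 0 of 13 in the E15.5 pair, against 1.15% and 0.566% of all counted genes. They were Pln, which encodes phospholamban, and Mef2a, a transcription factor freed from histone deacetylases by CaMKII. Pln had 731 FPKM in dKO and 1266 FPKM in dHET at P2.5, a change of -0.79 (0.57). At E15.5 Pln had 444 FPKM in dKO and 490 FPKM in dHET, a change of -0.14 (0.24). Mef2a had 46.6 FPKM in dKO and 72.8 FPKM in dHET at P2.5, a change of -0.63 (0.28). At E15.5 Mef2a had 57.5 FPKM in dKO and 66.6 FPKM in dHET, a change of -0.21 (0.16). Among genes that respond to NFAT in the heart, 1 of 5 counted at P2.5 and 1 of 4 at E15.5 was past 1.5-fold on the higher side, against 3.59% and 0.494% of all counted genes. It was Nppa, at 1021 FPKM in dKO and 182 FPKM in dHET at P2.5 and 1297 FPKM in dKO and 775 FPKM in dHET at E15.5; it is also a marker of atrial muscle.

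**Figure D4:**
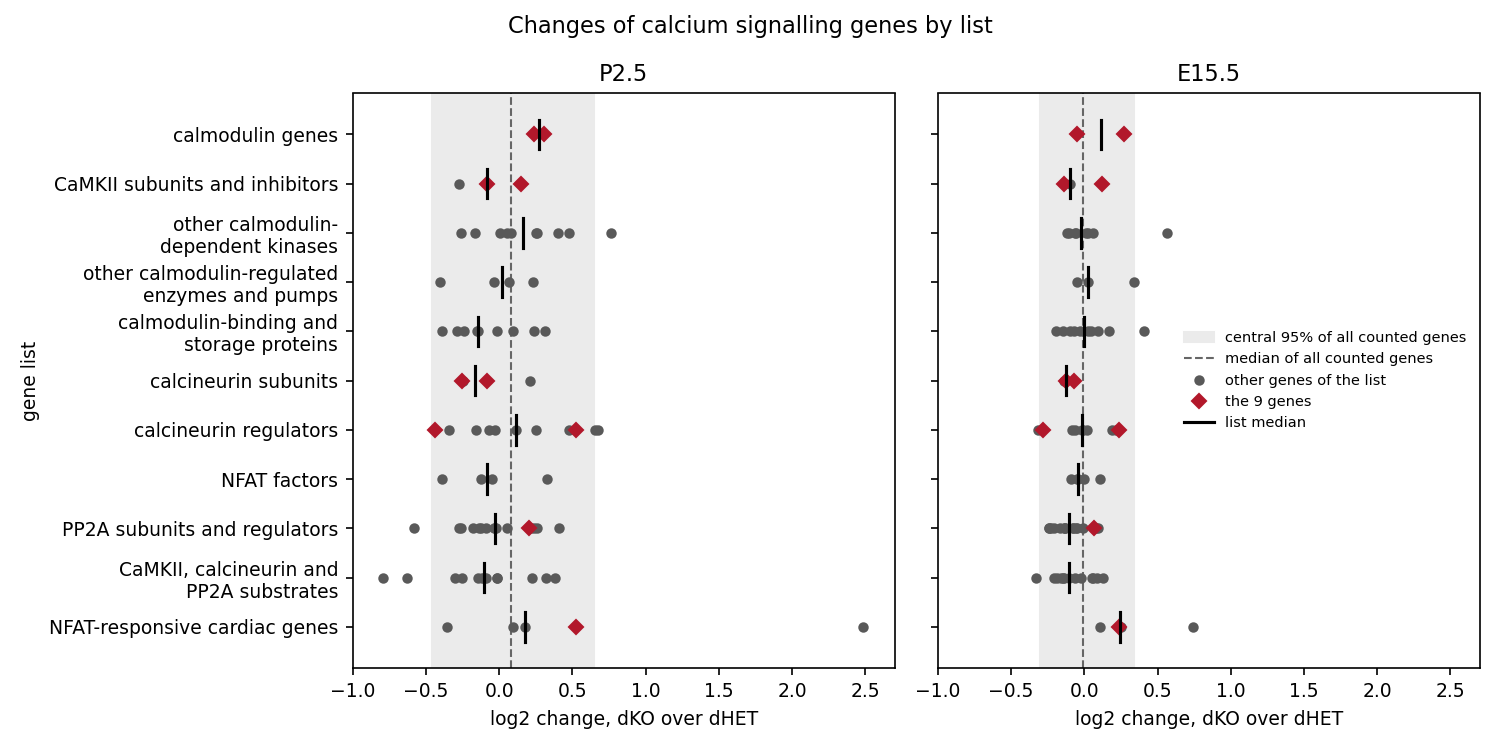
Each point is the log2 change (dKO over dHET) of a counted gene, at P2.5 on the left and at E15.5 on the right, in rows by gene list; diamonds are the 9 genes, black bars the list medians, the grey band the central 95% of all counted genes and the dashed line their median. All 9 genes lie inside the band at both stages, and Nppa lies farthest out, at 2.48 and 0.74.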

How the data were processed

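The deposited values are the authors' FPKM, in 1 table per stage of 22552 genes; the submitters' processing notes name TopHat, Bowtie, Cufflinks and mm9, without versions. Reads were single at P2.5 and paired at E15.5, per the labels. How reads with several matches were treated is not given in the sources used here. Per the file headers, the deposited tables also hold the authors' log2 fold change, test statistic, p-value and q-value; the E15.5 ones run control over dKO and were turned. The authors' standard error was taken as fold change over test statistic.

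Per stage, 86 rows displaced by commas were realigned, and rows flagged OK or with too few fragments were used. Changes used a pseudocount of 1 FPKM; counted genes had at least 5 FPKM in either library. No test was made. Scaling totals came from the FPKM of 1 fragment in genes with 1 annotated transcript. Gene positions are those of GENCODE M1; the deposited loci of Ppp3cb and Ppp2r5a also span neighbouring genes. Windows of 100 bases were mapped with minimap2 2.31 to NCBIM37. Tables were handled in Python 3.11.15 (pandas 2.3.3). Genes, lists and members were chosen with earlier results of these data known. Named besides the 9 were list genes past 1.5-fold at either stage, otherwise up to 2 per list and stage with the largest change, and the 3 genes nearest to the member of largest summed change.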

Additional observations from a re-analysis of the deposited data

Results flagged for a closer look

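Pcp4l1 and Marcksl1, both from the list of calmodulin-binding and storage proteins, changed in opposite directions at the 2 stages. Each changed by more than the median absolute change of all counted genes (0.18 at P2.5 and 0.093 at E15.5). Binding of calmodulin by each listed protein was not tested here. Pcp4l1 had 40.3 FPKM in dKO and 53.0 FPKM in dHET at P2.5, a log2 change of -0.39, and 18.5 FPKM in dKO and 13.8 FPKM in dHET at E15.5, a change of 0.40. Marcksl1 had 56.5 FPKM in dKO and 47.8 FPKM in dHET at P2.5, a change of 0.24, and 77.3 FPKM in dKO and 88.5 FPKM in dHET at E15.5, a change of -0.19. The difference between the stages was not tested.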

How the results depend on the processing

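The 9 changes were recomputed with pseudocounts of 0.1 and 5, 3 other scalings, an adjustment for GC content and length, and all status flags. All 126 values stayed within 1 authors' standard error of those given, and 3 changed sign, all at P2.5: Camk2d (0.022) and Ppp3ca (0.036) after the adjustment, and Camk2g (-0.0036) with each library rescaled to a sum of 1000000. Rcan1 ranged from 0.37 to 0.53 at P2.5 and from 0.22 to 0.26 at E15.5, and Rcan2 from -0.61 to -0.37 and from -0.29 to -0.24. The count of 0 genes past 1.5-fold became 1 lower at P2.5 (Rcan2) with that rescaling. At a threshold of 1.2 it became 2 higher and 1 lower at P2.5, and 1 higher and 1 lower at E15.5. List medians moved by less than the median standard error of their genes in all 198 cases, with 15 changes of sign or to 0. Paralog differences adjusted for GC content and length, an alternative chosen after seeing the data, changed sign in 1 of 8 cases (Calm2 to Calm3 at P2.5, 0.15, against -0.066 unadjusted); Rcan1 to Rcan2 gave 0.82 (P2.5) and 0.48 (E15.5). Any annotated 3′ UTR gave the same 4 genes with a match. No paired analysis was possible because the labels give no replicate numbers and each group has 1 library, so no library could be left out either.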
